A study of Homo sapiens with 8 samples.

Results

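The data described here are the transcript levels of 9 complement genes in CYP3A4-overexpressing HepG2 cells: the factors C1R, C1S, C3, CFB and C5, the regulators CFI, CD55 and CD59, and C5AR1, the receptor for the anaphylatoxin C5a. These 9 of the 60230 genes in the table were picked by symbol, with the changes against DMSO of these same libraries already known, so their values are given as a description without p-values. HepG2 is a widely used human cell line from a liver carcinoma, and every group, the control included, carries the overexpressed CYP3A4, a cytochrome P450 that oxidizes many drugs. A tumor line of this kind lacks the other cell types of the liver. The groups were control cells given 0.2% DMSO and cells exposed for about a day to compound 4, 5 or 6, which the labels name metylcresol, tetrabut and cyclohexil. All of them are bridged bisphenols used as antioxidants in plastics. By their chemical names, compound 4 carries tert-butyl and methyl groups on a methylene bridge, compound 5 tert-butyl groups only on an ethylidene bridge, and compound 6 cyclohexyl and methyl groups on a methylene bridge. Each compound was given at its own IC50 concentration, so doses were not matched, and values of the compounds stand side by side without a comparison between them. The study asked whether such plastic-related compounds are toxic to liver cells that overexpress CYP3A4. There were 2 libraries per group and 8 in all.

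Complement is a cascade of plasma proteins, most of which are made by hepatocytes. The classical route starts with the proteases C1R and C1S, the alternative route is amplified by factor B (CFB), and all routes meet at C3, whose cleavage product opens the way to cleavage of C5, release of C5a and assembly of the membrane attack complex. Factor I (CFI) inactivates C3b and C4b in plasma. CD55 speeds the decay of the convertases on the cell's own surface, CD59 blocks the last step of the attack complex, and C5AR1 passes the C5a signal into the cell.

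The upstream sequences of CD55, C5AR1 and CFI are shown because these genes had the largest changes among the members in either direction. Each is the 250 bases before the RefSeq start site on GRCh38.p14, written 5′ to 3′ on the strand of the gene, and capitals mark matches to the motifs named below.
CD55, chr1:207321428-207321677, plus strand: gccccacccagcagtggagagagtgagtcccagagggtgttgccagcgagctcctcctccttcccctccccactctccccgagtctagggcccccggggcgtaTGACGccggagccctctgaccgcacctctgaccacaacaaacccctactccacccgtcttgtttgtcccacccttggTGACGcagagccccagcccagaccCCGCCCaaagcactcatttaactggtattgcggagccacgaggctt
C5AR1, chr19:47309611-47309860, plus strand: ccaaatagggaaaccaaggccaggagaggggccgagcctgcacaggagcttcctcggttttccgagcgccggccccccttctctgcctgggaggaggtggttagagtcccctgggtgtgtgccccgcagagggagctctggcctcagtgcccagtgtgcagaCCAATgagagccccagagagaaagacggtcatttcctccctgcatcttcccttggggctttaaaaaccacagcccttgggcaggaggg
CFI, chr4:109802000-109802249, minus strand: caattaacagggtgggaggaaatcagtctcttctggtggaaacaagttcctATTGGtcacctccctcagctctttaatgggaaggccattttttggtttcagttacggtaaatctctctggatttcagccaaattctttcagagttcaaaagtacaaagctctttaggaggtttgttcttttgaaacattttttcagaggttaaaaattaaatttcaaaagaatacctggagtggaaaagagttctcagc

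The search used windows of 300 bases, which also hold the first 50 bases after the start, and both strands, with motifs chosen after the sequences had been seen. Windows were found for 7 of the 9 members, 12 windows in all, and C3 and C1S are named only. In CD55, the cyclic AMP element half-site TGACG began at positions −147 and −70 from the start site, and a GC box (GGGCGG, read as CCGCCC on the gene's strand) began at −46. TGACG was present in 24.6% and GGGCGG in 45.0% of all 35116 windows. The letters CCAAT were found in C5AR1 at −88 and, as ATTGG on the gene's strand, in CFI at −199, as in 34.6% of all windows. The GC content was 65.0% in the CD55 window, 61.3% in C5AR1 and 39.3% in CFI, against 57.5% over all windows. The window of CFB held TATAAA at −30, a motif of 11.5% of windows. None of the windows of CD55, C5AR1 and CFI held the letters of the AP-1 element (TGANTCA, 7.71% of all windows) or the C/EBP element (TTGCNNAA, 10.5%). The motifs also occurred in other members, TGACG in windows of C5 (−212) and C1R (−19) and CCAAT in windows of C5 and CD59. Windows of CD59 held GGGCGG and the AP-1 letters, and windows of CD59 and C1R the C/EBP letters. The windows of CD55, CFB and C5AR1 lay inside their genes as GENCODE 29 draws them, since that annotation puts the start of each gene further upstream than the RefSeq start used here. These matches describe the letters only.

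Library totals lay between 9472261 and 13308975 estimated counts, so that 3 counts, taken as the floor, equalled 0.234 to 0.313 CPM (counts scaled to the library size after TMM, counting error only). Mitochondrial transcripts took 4.91% and 5.12% of the counts in DMSO and more in each treated library, 5.46% and 5.31% for compound 4, 6.15% and 5.87% for compound 5, and 5.58% and 6.21% for compound 6. This share thus moved with the groups, and its part in the changes against DMSO was not tested. Replicates of a group differed by 5.51 to 17.2 times the chi-square of counting noise per degree of freedom, and no pair looked like the same library deposited again. Among the marker lists, the 10 hepatocyte genes summed to between 39596 and 41411 CPM in DMSO, 30961 to 31067 with compound 4, 32927 to 33105 with compound 5 and 31540 to 37911 with compound 6, so the hepatocyte markers moved with the groups, and their part in the changes of liver-made factors was not tested. All libraries come from the same cell line, and bulk RNA cannot tell a lower level in every cell from a lower level in only some cells. Of the 14 myeloid markers, 7 were at 0 in all 8 libraries, PTPRC, CSF1R and TYROBP among them. The 4 endothelial markers, 1 of them at 0 throughout, summed to 0.904 to 1.28 CPM in DMSO, 1.56 to 1.62 for compound 4, 0.864 to 1.28 for compound 5 and 1.88 to 2.06 for compound 6, so both libraries of compounds 4 and 6 lay above the controls. These sums rest on few counts. Over both libraries of DMSO and of compounds 4, 5 and 6, PECAM1 had 7, 20, 10 and 18 counts, CDH5 2, 4, 1 and 8, and VWF 15, 15, 14 and 17.

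In control cells the members spanned a wide range of abundance. Per kilobase of exon, C3 stood at 493 CPM, far above CFB at 30.8 and CFI at 30.1, whose control libraries overlapped. C5 followed at 18.7, CD59 at 13.1, CD55 at 2.60 and C1S at 1.49 CPM per kilobase. C5AR1 at 0.239 and C1R at 0.201 CPM per kilobase closed the order, again with overlapping control libraries. With compound 5, C5AR1 stood at 6.05 CPM per kilobase and thus above C1S at 1.22.

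Of the 9 members, all of which passed the filter on low counts, 2 (CD55 and CFI) were past an edgeR adjusted cutoff of 0.05 with compound 4, where 11.9% of the 13404 tested genes were called. With compound 5, 5 of 9 were past it (CFB, CFI, CD55, CD59 and C5AR1), where 28.1% of tested genes were called, and with compound 6, 1 of 9 (CD55), where 4.40% were called. The median log2 change of the members was 0.03, 0.11 and 0.21 with compounds 4, 5 and 6, and that of all tested genes was 9.9e-05, −0.03 and 0.003. The comparisons share the DMSO libraries. The members were chosen with these changes known, so the counts describe the choice.

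**Figure D1:**
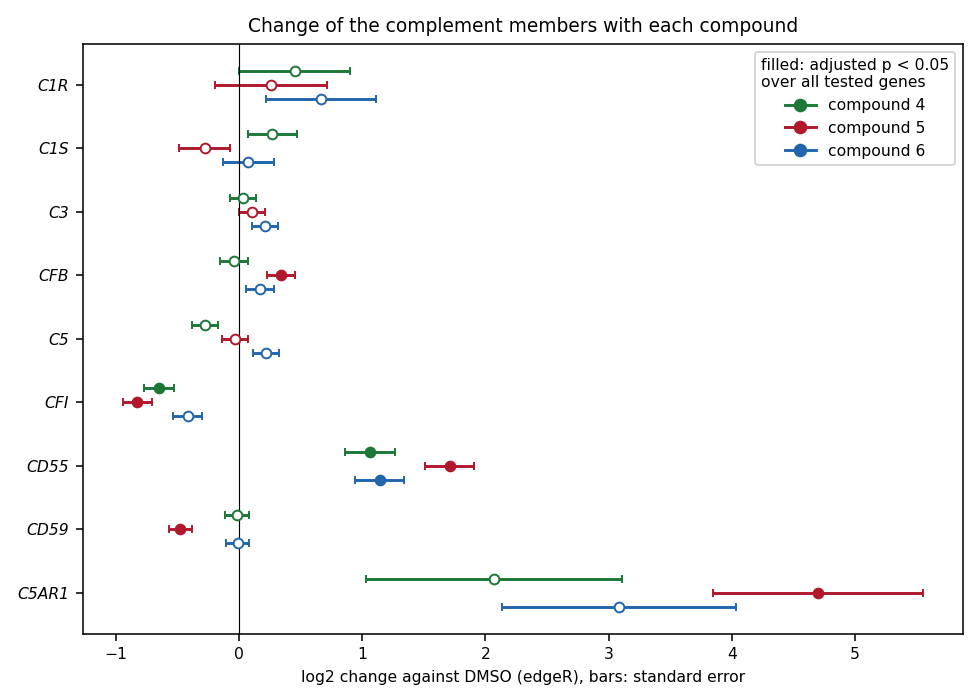
Log2 change of each member against DMSO from the edgeR fit, with standard errors as bars and 1 color per compound (filled points are past an adjusted cutoff of 0.05 over all tested genes). CD55 lies to the right of 1 with each compound, CFI lies to the left of 0 with each, and C5AR1 reaches 4.70 with compound 5.

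C1R and C1S, the paired proteases of the first complement complex, were low and showed no change past the cutoff. They are neighbors on chromosome 12 in GRCh38, C1S (ENSG00000182326) at chr12:6988259-7071032 on the plus strand and C1R (ENSG00000159403) at chr12:7080199-7092607 on the minus strand, with 9166 bases between them. C1R was at 0.886 and 1.48 CPM in DMSO, 2.05 and 1.25 under compound 4, 1.37 and 1.49 under compound 5, and 2.29 and 1.56 under compound 6. Only the compound 6 libraries both lay above both controls, and with 9 to 24 counts per library the log2 changes of 0.45 ± 0.45, 0.26 ± 0.46 and 0.67 ± 0.45 (± SE, here and below) did not pass the cutoff. Of the 31-base words of C1R transcripts, 10.5% also occur in C1RL, which was at 18.2 to 35.8 CPM and thus far above C1R. Of the 6 stellate and fibroblast markers, genes of cells that also make C1R and C1S, 3 were at 0 in all 8 libraries and COL1A1 and COL3A1 had at most 1 count in a library. The summed level of the list, 1.64 to 2.66 CPM in DMSO, 6.32 to 8.72 for compound 4, 2.67 to 4.58 for compound 5 and 3.86 to 5.43 for compound 6, was therefore almost wholly that of PDGFRB (1.64 to 2.66, 6.32 to 8.55, 2.67 to 4.58 and 3.75 to 5.43 CPM). C1S was at 11.2 and 8.05 CPM in DMSO, 10.2 and 12.9 under compound 4, 8.52 and 7.30 under compound 5, and 10.4 and 9.80 under compound 6. All 3 groups of treated libraries overlapped the controls, with log2 changes of 0.27 ± 0.20, −0.28 ± 0.21 and 0.08 ± 0.20.

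C3 (ENSG00000125730, chr19:6677704-6730562, minus strand), the central component, was at 4129 and 4075 CPM in DMSO, 4524 and 3850 under compound 4, 4420 and 4409 under compound 5, and 4746 and 4734 under compound 6. Both compound 5 and both compound 6 libraries lay above the controls, while those of compound 4 enclosed them. The log2 changes of 0.03 ± 0.11, 0.11 ± 0.11 and 0.21 ± 0.11 did not pass the cutoff. C5 (ENSG00000106804, chr9:120952335-121050276, minus strand), the source of C5a, was at 118 and 127 CPM in DMSO, 104 and 98.6 under compound 4, 117 and 122 under compound 5, and 152 and 133 under compound 6. It lay below both controls with compound 4 and above both with compound 6, with log2 changes of −0.27 ± 0.11, −0.04 ± 0.11 and 0.22 ± 0.11, none past the cutoff.

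CFB (ENSG00000243649, chr6:31945650-31952084, plus strand), the protease of the alternative convertase, was at 162 and 147 CPM in DMSO, 139 and 160 under compound 4, 182 and 208 under compound 5, and 174 and 173 under compound 6. Both compound 5 libraries lay above the controls, and the log2 change of 0.34 ± 0.11 (1.27-fold) was past the cutoff, whereas −0.05 ± 0.11 with compound 4 and 0.17 ± 0.11 with compound 6 were not. This call depended on the setting: it was lost with upper-quartile scaling (0.25), with library size only (0.24) and with the replicate block, which paired libraries by replicate number (0.34). It was also lost without either DMSO replicate (0.41 without replicate 1 and 0.30 without replicate 2) or either compound 5 replicate (0.46 without replicate 1 and 0.24 without replicate 2). Of the 31-base words of CFB transcripts, 42.9% also occur in a C2 to CFB read-through gene (AL645922.1), which was at 0 to 3.75 CPM.

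CFI (ENSG00000205403, chr4:109740694-109802179, minus strand), the plasma protease that inactivates C3b, was lower in the treated libraries. It was at 153 and 140 CPM in DMSO, 91.2 and 95.4 under compound 4, 84.0 and 81.6 under compound 5, and 122 and 98.3 under compound 6. No treated library reached the lower control. The log2 change was −0.65 ± 0.12 with compound 4 (0.636-fold) and −0.83 ± 0.12 with compound 5 (0.564-fold), both past the cutoff, and −0.42 ± 0.12 with compound 6, which was not. The compound 5 call held in all 8 alternative settings and in all 8 fits that left out 1 library, and of the same settings and fits the compound 4 call was lost in the one without DMSO replicate 1 (−0.59). Here and below, fits without a library of another compound left both compared groups whole. Every setting refits these same libraries, so a held call is no added support. With compound 6, CFI was called with DESeq2 (−0.41), with no filter (−0.41) and in fits without compound 4 replicate 1 (−0.42), compound 4 replicate 2 (−0.40) or compound 6 replicate 1 (−0.55), and without compound 6 replicate 2 the change was −0.26. A gene model that overlaps CFI on the same strand (AC126283.2) holds 30.97% of the 31-base words of CFI transcripts and was at 0 to 8.34 CPM.

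CD55 (ENSG00000196352, chr1:207321376-207386804, plus strand), whose upstream sequence is shown above, was higher with each compound. It was at 16.8 and 13.9 CPM in DMSO, 32.3 and 31.7 under compound 4, 51.1 and 49.1 under compound 5, and 25.8 and 41.4 under compound 6. Every treated library lay above both controls. The log2 changes were 1.06 ± 0.20 (2.09-fold), 1.71 ± 0.20 (3.27-fold) and 1.14 ± 0.20 (2.20-fold), all past the cutoff. The compound 5 call held in all 8 alternatives and all 8 fits without 1 library. That of compound 4 was lost without DMSO replicate 2 (0.93). That of compound 6 was lost without DMSO replicate 1 (1.28), DMSO replicate 2 (1.00) or compound 6 replicate 2 (0.76), and the second compound 6 library was 1.60-fold above the first. In each of those fits far fewer of all tested genes were called with compound 6.

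CD59 (ENSG00000085063, chr11:33703010-33736491, minus strand), the other membrane regulator among the members, was lower with compound 5. It was at 137 and 134 CPM in DMSO, 134 and 134 under compound 4, 98.3 and 96.5 under compound 5, and 139 and 130 under compound 6. Only the compound 5 libraries stood well apart from the controls, those of compound 4 lying just under them. The log2 change with compound 5 was −0.48 ± 0.10 (0.719-fold), past the cutoff in all 8 alternatives and all 8 fits without 1 library, and the changes with compounds 4 and 6 were −0.02 ± 0.09 and −0.01 ± 0.10. Thus with compound 5 the 2 surface regulators among the members stood on opposite sides of their controls, CD55 above and CD59 below.

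C5AR1 (ENSG00000197405, chr19:47290023-47322066, plus strand) had the largest change of the members. It was at 1.08 and 0.329 CPM in DMSO, 4.19 and 1.64 under compound 4, 17.4 and 18.3 under compound 5, and 0.938 and 10.2 under compound 6. These rest on 11 and 4 counts in DMSO, 49 and 21 for compound 4, 190 and 233 for compound 5, and 9 and 124 for compound 6. Both libraries of compounds 4 and 5 lay above the controls, while those of compound 6 split, the first lying between the controls and the second far above them. The log2 change with compound 5 was 4.70 ± 0.85 (26.0-fold), past the cutoff in the 7 alternatives that could be fitted and in all 8 fits without 1 library, where it lay between 4.05 and 5.72. It was 2.07 ± 1.04 (4.21-fold) with compound 4 and 3.09 ± 0.95 (8.49-fold) with compound 6, neither past the cutoff.

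The compound 6 value of C5AR1 rested on 1 library. The second replicate was 9.34-fold above the first, a gap that 0.246% of tested genes exceeded in this group, and without it the log2 change was 0.48, against 3.92 without the first. It was 4.10 without DMSO replicate 1 and 2.41 without DMSO replicate 2. The compound 6 value was called with no filter (3.09) and in the fits without compound 4 replicate 1 (3.09), compound 4 replicate 2 (3.11) or compound 6 replicate 1 (3.92). The compound 4 value was called with no filter (2.07) and in the fits without compound 6 replicate 1 (2.08) or replicate 2 (2.08), and was 3.09 without DMSO replicate 1, 1.40 without DMSO replicate 2 and 1.26 without compound 4 replicate 1. Of the 31-base words of C5AR1 transcripts, 9.18% also occur in other genes, and the gene with the largest share of them, CYB5R3 (1.13%), was at 261 to 348 CPM. C5AR1 is best known from myeloid cells. LYZ, at 1854 to 2993 CPM over the 8 libraries, made up most of the myeloid list. CD68 was at 38.5 and 27.2 CPM in DMSO and lay above both controls for compound 4 (56.3 and 57.6 CPM) and compound 6 (50.6 and 47.3 CPM), but not for compound 5 (39.1 and 35.6 CPM). Besides LYZ and CD68, the remaining myeloid markers summed to 0.822 to 1.67 CPM in DMSO, 2.03 to 2.91 with compound 4, 1.74 to 1.88 with compound 5 and 1.67 to 1.81 with compound 6. One of them, CD14, was at 0.0985 and 0.164 CPM in DMSO, under the floor of 3 counts, and above both controls in every treated library, at 0.941 and 1.25 CPM for compound 4, 0.458 and 0.628 for compound 5, and 0.938 and 0.988 for compound 6. The part of these markers in the values of C5AR1 was not tested. The full list of 14 summed to 2411 to 3033 CPM in DMSO, 2140 to 2499, 1891 to 2065 and 2226 to 2697 CPM with compounds 4, 5 and 6.

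The 3 genes whose pattern over the 8 libraries was nearest to that of C5AR1, by the root mean square difference of centered log2 CPM, were KLHDC7B (0.21), DUSP5 (0.61), which encodes a phosphatase of the ERK kinases, and ENSG00000269693 (0.68), against 1.87 for the median tested gene. KLHDC7B was at 1.18 and 0.247 CPM in DMSO, 2.74 and 1.40 under compound 4, 16.0 and 14.8 under compound 5, and 1.04 and 8.89 under compound 6. It split between the compound 6 libraries as C5AR1 did, but it was chosen for its likeness over these same libraries. DUSP5 was at 1.77 and 1.23 CPM in DMSO, 10.1 and 8.27 under compound 4, 33.9 and 33.4 under compound 5, and 5.32 and 17.1 under compound 6. ENSG00000269693 was at 0 CPM in 4 of the 8 libraries and reached 3.67 CPM with compound 5.

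**Figure D2:**
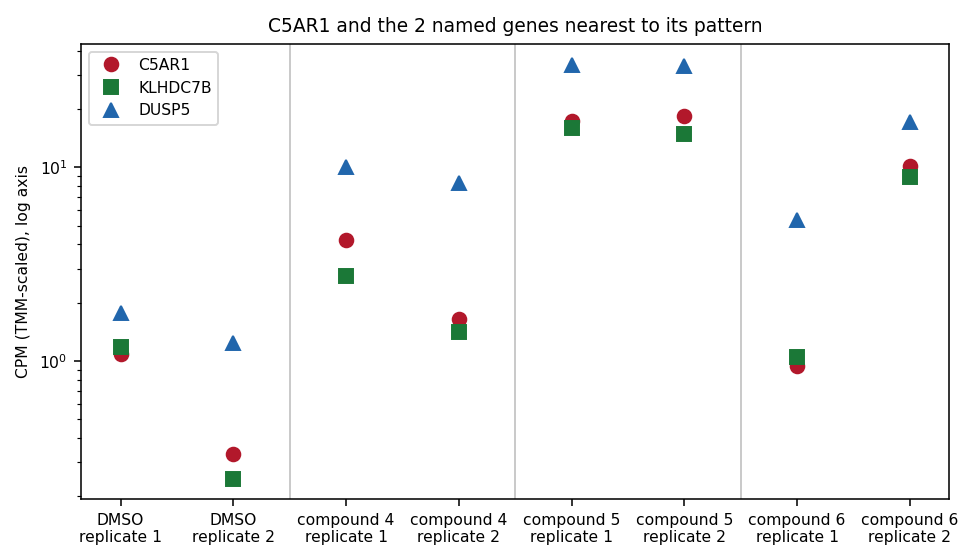
CPM of C5AR1 and of KLHDC7B and DUSP5, the named genes nearest to it in pattern, in each of the 8 libraries, on a log axis. C5AR1 and KLHDC7B run close together, with the first compound 6 library at the level of DMSO (0.938 CPM for C5AR1) and the second far above it (10.2 CPM).

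The pathway outside the 9 members was described with a list of 51 genes. Of these 25 passed the filter, and 26 did not, 18 of them at 0 in all 8 libraries and none above 0.492 CPM. With compound 4, edgeR called 6 of the 25, of which 2 rose and 4 fell, where 6.50% of all tested genes rose and 5.42% fell. With compound 5 it called 12, of which 1 rose and 11 fell, where the background was 13.9% rising and 14.2% falling. With compound 6 it called 2, of which MASP1 rose and CPB2 fell, where 2.80% of all tested genes rose and 1.60% fell. The median log2 changes of the list were −0.02, −0.44 and −0.10.

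Among the initiators, 8 of 16 were tested, and MASP1, a protease of the lectin route, rose with each compound. It was at 38.6 and 30.4 CPM in DMSO, 76.7 and 63.0 under compound 4, 64.3 and 56.9 under compound 5, and 73.7 and 72.2 under compound 6, so no treated library overlapped the controls. The log2 changes were 1.02 ± 0.14, 0.81 ± 0.14 and 1.08 ± 0.14 (edgeR adjusted p = 0.00184, 0.00259 and 0.00465). Of the fits without 1 library, the compound 6 call was lost in the one without DMSO replicate 2 (0.92), where almost none of all tested genes were called. With compound 5, MASP2 (−0.63) and C1RL (−0.75, a relative of C1R with 15.02% of its 31-base words in other genes, mainly C1R) fell (edgeR adjusted p = 0.0217 and 0.00392), and the MASP2 call was lost without DMSO replicate 1 (−0.43), compound 5 replicate 1 (−0.58) or compound 5 replicate 2 (−0.66). C2, C4A and C4B, which feed the classical convertase, were at means of 226, 634 and 448 CPM over all libraries and were not called with any compound, though DESeq2 called C4A with compound 6. C4A and C4B are nearly identical and their split is uncertain.

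Of the alternative pathway list 1 of 7 genes was tested, CFD, the protease that cleaves factor B, and it fell with compound 5 by 1.55 on the log2 scale (edgeR adjusted p = 0.0119). Its controls held 5.71 and 5.92 CPM and the treated libraries 1.83 and 2.12 CPM. The call was lost in each of the 4 fits without a library of either group, with values between −1.66 and −1.42. The log2 change was −0.82 ± 0.35 with compound 4 and −0.65 ± 0.35 with compound 6, which were not called, though the first was with no filter and the second without compound 6 replicate 1. The compound 4 libraries held 2.99 and 3.59 CPM, below both controls. Those of compound 6 were also below them but split, at 5.32 CPM, close to the controls, and 2.22 CPM. Of 6 terminal components 4 were tested. C8A and C8B, chains of C8 in the attack complex, fell with compound 4 (log2 change −1.39 and −1.72, edgeR adjusted p = 0.0455 and 0.0246) and with compound 5 (−1.53 and −1.47, edgeR adjusted p = 0.0181 and 0.0239). With compound 4, 2 of the 8 fits without 1 library called C8A, and those that did not gave −1.68 to −1.04 (without DMSO replicate 1 −1.04, without DMSO replicate 2 −1.68, without compound 4 replicate 1 −1.19 and replicate 2 −1.62, without compound 5 replicate 1 −1.38 and replicate 2 −1.39). The C8B call there was lost without DMSO replicate 1 (−1.27) or either compound 4 replicate (−1.69 and −1.74). With compound 5 both calls were lost without DMSO replicate 1 (C8A −1.18, C8B −1.02) and without compound 5 replicate 2 (C8A −1.19, C8B −1.004). The third chain, C8G, rose with compound 4 by 0.81 (edgeR adjusted p = 0.0149), a call lost without DMSO replicate 2 (0.66) or compound 4 replicate 2 (0.68). With compound 6, where no chain of C8 was called, C8G was at 0.64 ± 0.18, C8A at −1.07 ± 0.39 and C8B at −0.65 ± 0.39 on the log2 scale. C8G and C8A were called there with no filter, and C8G also without either compound 4 replicate. C6, which joins the attack complex after C5b, was called lower with compound 4 (edgeR adjusted p = 0.014), with 2 counts there against 35 in DMSO, a ratio of 0.052 (exact 95% interval 0.00606 to 0.203, counting error only), and the call was lost without DMSO replicate 1 or compound 4 replicate 2 (fitted log2 −3.54 and −3.12, which depend on the prior count).

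Of 9 soluble regulators 7 were tested. CPB2, a carboxypeptidase that inactivates C5a and C3a, fell with each compound. Its controls held 47.8 and 41.0 CPM, and the treated libraries held 20.9 and 21.2, 25.7 and 29.4, and 25.5 and 19.8 CPM in the order of the compounds. Its log2 changes were −1.08 ± 0.15, −0.69 ± 0.15 and −0.98 ± 0.15 (edgeR adjusted p = 0.00183, 0.00685 and 0.00879). The compound 5 call was lost without DMSO replicate 1 (−0.57) or compound 5 replicate 1 (−0.57), and the compound 6 call without DMSO replicate 1 (−0.86), DMSO replicate 2 (−1.08) or compound 6 replicate 2 (−0.79). In those compound 6 fits far fewer of all tested genes were called. CPN1, the catalytic chain of the other such carboxypeptidase, fell with compound 5 (−0.86, edgeR adjusted p = 0.00136), as did both chains of the C4b-binding protein, C4BPA (−0.66, edgeR adjusted p = 0.0123) and C4BPB (−0.56, edgeR adjusted p = 0.0121). Both C4b-binding protein calls were lost without DMSO replicate 1 (−0.48 and −0.46) and without compound 5 replicate 1 (−0.56 and −0.61), and that of C4BPB also without compound 5 replicate 2 (−0.50). CLU, VTN and CPN2 were at means of 300, 82.0 and 80.3 CPM and were not called. VTN was, however, called lower with compound 5 under upper-quartile scaling, library size only and only the groups compared, and in the fits without compound 4 replicate 1, compound 4 replicate 2 or compound 5 replicate 2.

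Of 4 membrane regulators 2 were tested, and CD46, the cofactor with which CFI cleaves C3b on the cell surface, fell with compound 5, to 158 and 159 CPM against 215 and 221 CPM in the controls (log2 change −0.46, edgeR adjusted p = 0.00466). This call was lost without DMSO replicate 2 (−0.42) or compound 5 replicate 1 (−0.43). With compound 4, CD46 was at 178 and 182 CPM (log2 change −0.28 ± 0.09), also below both controls, and was called with library size only, as was CPN1 there. CD46 and CD59 thus lay below their controls with compound 5, and CD55 above. CSMD1, the other tested gene of this role, named after its values were seen, also lay above them with compound 5 (0.54 ± 0.23) and compound 6 (0.53 ± 0.23). It was not called, though with compound 5 it was with no filter, with only the groups compared and without compound 4 replicate 2. Of 9 receptors 3 were tested. ITGB2, the beta chain of complement receptors on leukocytes, fell with compound 5 (−0.50, edgeR adjusted p = 0.0166), a call lost without DMSO replicate 1 (−0.42), DMSO replicate 2 (−0.55) or compound 5 replicate 2 (−0.36). C1QBP, at a mean of 329 CPM, was not called. C5AR2, the second C5a receptor, named after its values were seen, was at 0.591 and 0.658 CPM in DMSO and at 0.834 to 1.56 CPM in the treated libraries, and was not called.

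**Figure D3:**
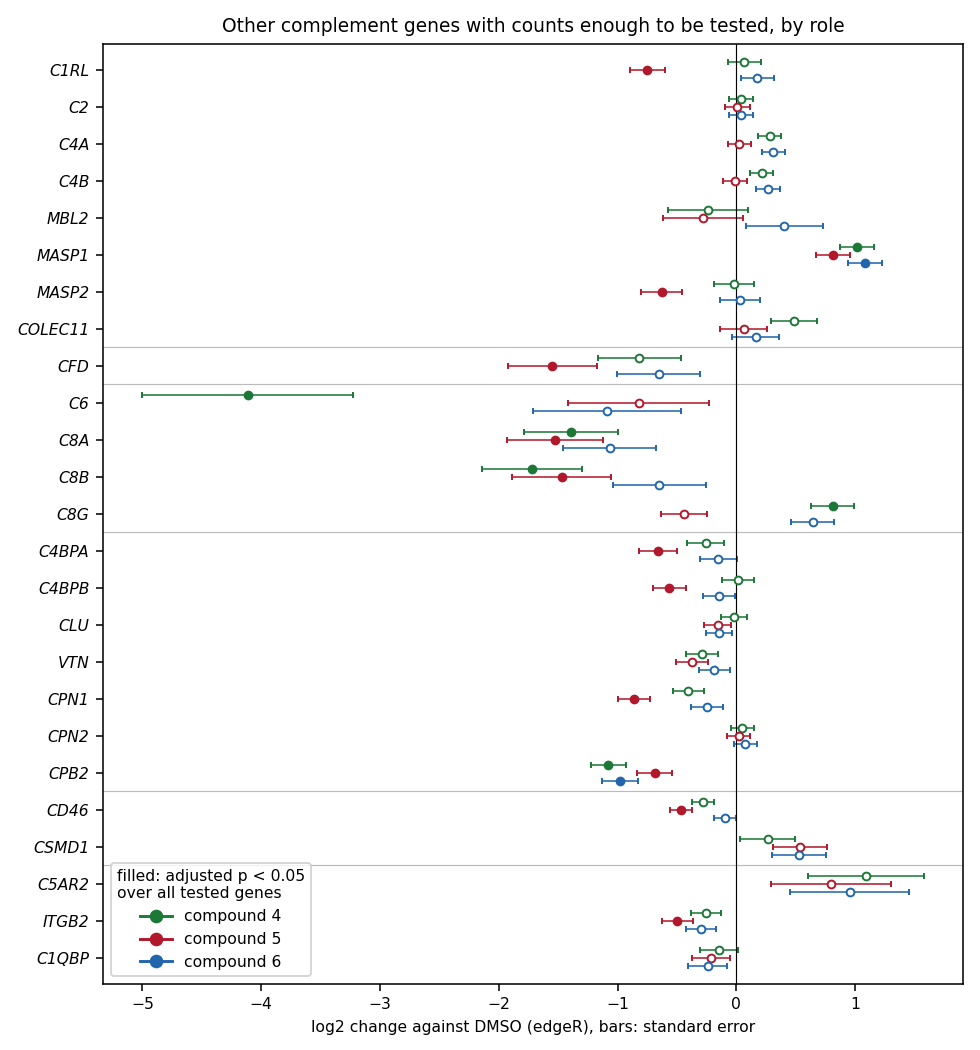
Log2 change against DMSO of the 25 tested genes of the complement list, with standard errors as bars and 1 color per compound (filled points are called at an edgeR adjusted p under 0.05), and lines between the roles from initiators to receptors. MASP1 is the gene right of 0 and filled for each compound, and CPB2 the one left of 0 and filled for each.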

How the data were processed

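RNA from 8 libraries of CYP3A4-overexpressing HepG2 cells was sequenced, and the authors estimated transcript abundance with Salmon 1.5.0 on a GENCODE transcriptome (GRCh38) and summed it to genes with tximeta, after FastQC 0.12.0. The deposited values are estimated counts per gene stored as whole numbers, without scaling. The labels of replicate 1 of compounds 4 and 5 call them merged, each from 2 numbered items whose kind is not stated. The labels mark the replicates of each group as day 1 and day 2 but do not say whether these were separate cultures, so the p-values measure only the spread between these libraries, part of which may be technical. The members and gene lists were chosen with earlier results of these data known.

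Counts were analyzed with edgeR 4.0.16, on limma 3.58.1, in R 4.3.3. Libraries were scaled by TMM (factors 0.958 to 1.04), genes were kept by filterByExpr (13404), and a quasi-likelihood model with 4 groups was fitted to all 8 libraries. The cutoff was a p of 0.05 after Benjamini-Hochberg adjustment over all tested genes. Exact permutation of 2 against 2 libraries cannot go below 0.333 and was not used. The alternatives were DESeq2 1.42.0, RLE, upper-quartile and library-size scaling, no filter, at least 10 counts in every library, the replicate block, only the groups compared, a cutoff of 0.01 and 8 fits without 1 library each. The day was used as the replicate number for pairing, and same-numbered libraries correlated in their deviations between −0.083 and 0.16 over 6 pairs of groups. Coordinates, exon lengths and 31-base words came from GENCODE 29 on GRCh38, another release than that of the authors, and promoters from RefSeq (GRCh38.p14). Symbols were found for 60089 genes. The text names every member, the listed complement genes called with at least 1 compound or with a mean of at least 20 CPM, and the 3 genes nearest to C5AR1 (prior count 2). C5AR2 and CSMD1 were named after their values were seen.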

Additional observations from a re-analysis of the deposited data

How the results depend on the processing

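No change against DMSO reversed its sign with a call, and the counts of members, of other complement genes and of all tested genes stayed within 1.5 times under the settings not named here. At an adjusted cutoff of 0.01, other complement genes past it numbered 2 with compound 4 and 5 with compound 5, members with compound 6 numbered 0, and all tested genes past it numbered 591, 1809 and 92 with compounds 4, 5 and 6. With compound 6, 2 members were called with DESeq2 and 3 with no filter, where 4 other complement genes and 1441 genes in all were called. The replicate block took the count of members with compound 5 to 4 through the loss of CFB and changed no other call of a member or listed complement gene, and 1549, 3676 and 499 genes in all were called with it. In the fits without 1 library, called members numbered 1 to 3, 4 to 5 and 0 to 3 with compounds 4, 5 and 6, other complement genes 2 to 6, 4 to 14 and 0 to 3, and all genes 335 to 1703, 1680 to 4519 and 1 to 1096. In those fits the lone library was assumed to vary like the others. With compound 6, far fewer of all tested genes were called without either DMSO replicate or without compound 6 replicate 2. A call lost in such a fit need not mean a smaller change.

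The share of calls with compound 5 that were higher was 49.3% with TMM, 36.6% with upper-quartile scaling, 33.3% with library size only and 59.2% with DESeq2, and library size only moved the median of all genes there by −0.10. DESeq2 gave no adjusted p for C6 with compound 4, and the gene was not tested at 10 counts in every library. Calls of C8A with compound 4 (log2 change −1.41) and of MASP2 (−0.60) and C8B (−1.44) with compound 5 were lost with DESeq2. Without DMSO replicate 1, 4 of the 12 calls with compound 5 were kept, and without DMSO replicate 2 neither call with compound 6 was. C5AR1 and C1R had no fit at 10 counts in every library. Depth limited C1R, C6, C5AR2 and the DMSO values of C5AR1, with 0 to 24 counts in a library. The causes were not tested.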
